A study of Mus musculus with 6 samples.

Results

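The 10 genes of antigen presentation by major histocompatibility complex (MHC) class I molecules examined here were the light chain gene B2m, the heavy chain genes H2-K1, H2-D1, H2-Q4, H2-T22, H2-T23 and H2-M3, and the peptide loading genes Tap1, Tap2 and Tapbp. They were taken by symbol from the 6 expression tables, and all 10 had a value other than 0, out of 47593 symbols, 26562 of which were not at 0. The cells were primary hippocampal neurons of wild-type (WT) mice. B27 and GlutaMAX were added to the Neurobasal medium of both groups. They were treated on day 10 of culture for 24 h with 6 µg/mL of apolipoprotein E (apoE) particles, from microglia in 3 samples and from astrocytes in 3 samples. ApoE is a lipid carrier that both kinds of glia release. Untreated neurons were not analysed here, so every direction is microglial relative to astrocytic apoE. Whether the 3 samples per group were grown as separate cultures is not stated, so p-values measure the spread between these samples, which may be technical. The strain of the mice is not stated either.

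A class I molecule is a heavy chain bound to beta-2-microglobulin, the product of B2m, and to a short peptide. The proteasome cuts the peptide in the cytosol, the TAP1 and TAP2 transporter carries it into the endoplasmic reticulum, and tapasin, the product of Tapbp, holds the empty heavy chain at the transporter until a peptide fits. The complex is shown to CD8 T cells and natural killer cells at the cell surface. Interferons induce most of these genes, and the transactivator NLRC5 drives their transcription. Neurons are known for low class I levels, and neuronal class I molecules have been linked to synapse refinement as well as to immune recognition.

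Class I promoters are known for a compact set of control elements: a kappaB site, an interferon-stimulated response element (ISRE), an X2 site related to the cAMP response element and a Y box. Sequences are shown for the light chain and the 6 heavy chain genes because these elements can be read in them directly. Each is the stretch of 150 bases from 200 to 51 bases before the annotated start, 5′ to 3′ on the gene's own strand, from RefSeq on GRCm38.p6. Capitals mark, on either strand, the ISRE core (GAAA, any 2 bases, GAAA), an ISRE-like form that is 1 base shorter (GAA, any 2 bases, GAAA) or a kappaB form (GGG, any 2 bases, TT, any base, CC).
B2m (chr2:122147487-122147636, plus strand): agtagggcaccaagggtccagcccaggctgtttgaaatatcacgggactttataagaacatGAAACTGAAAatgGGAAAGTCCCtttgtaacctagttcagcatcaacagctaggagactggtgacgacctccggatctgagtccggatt
H2-K1 (chr17:34000398-34000547, minus strand): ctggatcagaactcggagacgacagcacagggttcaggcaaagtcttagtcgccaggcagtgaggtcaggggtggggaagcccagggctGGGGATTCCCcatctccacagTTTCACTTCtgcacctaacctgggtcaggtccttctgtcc
H2-D1 (chr17:35262894-35263043, plus strand): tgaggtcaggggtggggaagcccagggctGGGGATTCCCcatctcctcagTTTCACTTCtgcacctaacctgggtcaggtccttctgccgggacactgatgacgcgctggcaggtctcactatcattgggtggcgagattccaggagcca
H2-Q4 (chr17:35379417-35379566, plus strand): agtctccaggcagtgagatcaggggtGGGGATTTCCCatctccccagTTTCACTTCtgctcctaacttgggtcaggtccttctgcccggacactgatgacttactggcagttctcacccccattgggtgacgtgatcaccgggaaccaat
H2-M3 (chr17:37270034-37270183, plus strand): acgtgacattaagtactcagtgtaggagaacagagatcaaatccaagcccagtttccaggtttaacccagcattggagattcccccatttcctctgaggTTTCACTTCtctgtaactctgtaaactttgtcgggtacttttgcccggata
H2-T22 (chr17:36042793-36042942, minus strand): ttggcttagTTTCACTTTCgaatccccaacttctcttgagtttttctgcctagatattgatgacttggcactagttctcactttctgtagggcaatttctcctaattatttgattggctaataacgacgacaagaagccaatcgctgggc
H2-T23 (chr17:36032752-36032901, minus strand): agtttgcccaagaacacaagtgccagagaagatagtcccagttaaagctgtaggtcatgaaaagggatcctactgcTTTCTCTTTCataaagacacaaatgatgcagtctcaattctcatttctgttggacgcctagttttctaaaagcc

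In H2-K1, H2-D1 and H2-Q4 the capitals on the left are the kappaB form and those on the right, TTTCACTTC, are the shorter ISRE-like form read on the other strand. The kappaB match began 111 bases before the start in H2-K1, 171 in H2-D1 and 174 in H2-Q4, and in each of the 3 the ISRE-like match began 21 bases after it. In H2-Q4 an overlapping kappaB match began 173 bases before the start. H2-K1 has another RefSeq start, from which the kappaB match was 125 and the ISRE-like match 104 bases away. The distances depend on the start chosen, and the H2-D1 stretch lies inside the GENCODE span of that gene given below. Part of the H2-T23 stretch also lies inside the span given below for H2-T23. H2-M3 held the ISRE-like letters 101 bases before its start, without a kappaB match. B2m held the ISRE core 139 bases and the kappaB form 126 bases before its start, so their order is the opposite in B2m. H2-T22 and H2-T23 held the ISRE core without a kappaB match. These are matches of letters, not measured binding sites.

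Over the whole windows of 300 bases (250 before to 50 after the start), which the RefSeq table holds for 9 of the 10 genes, the ISRE core was present in 3 of 9 (B2m, H2-T22 and H2-T23), against 3.99% of 27025 mouse genes. The shorter ISRE-like form, searched after the class I sequences had been read, was present in 4 of 9, against 8.68% of genes. The kappaB form was present in 4 of 9, against 5.48%. The X2 and cAMP response element core TGACG was present in 7 of 9, against 23%, and the Y box letters CCAAT in 9 of 9, against 41.1%. In Tap1 and Tapbp, none of the ISRE core, its shorter form and the kappaB form was present in this window. The Tapbp window (33919228 to 33919527) lies inside the GENCODE span of Tapbp given below, so for Tapbp this holds for the RefSeq start only. Neighbouring H2 genes are copies of one another, so their promoters are not independent examples.

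**Figure D1:**
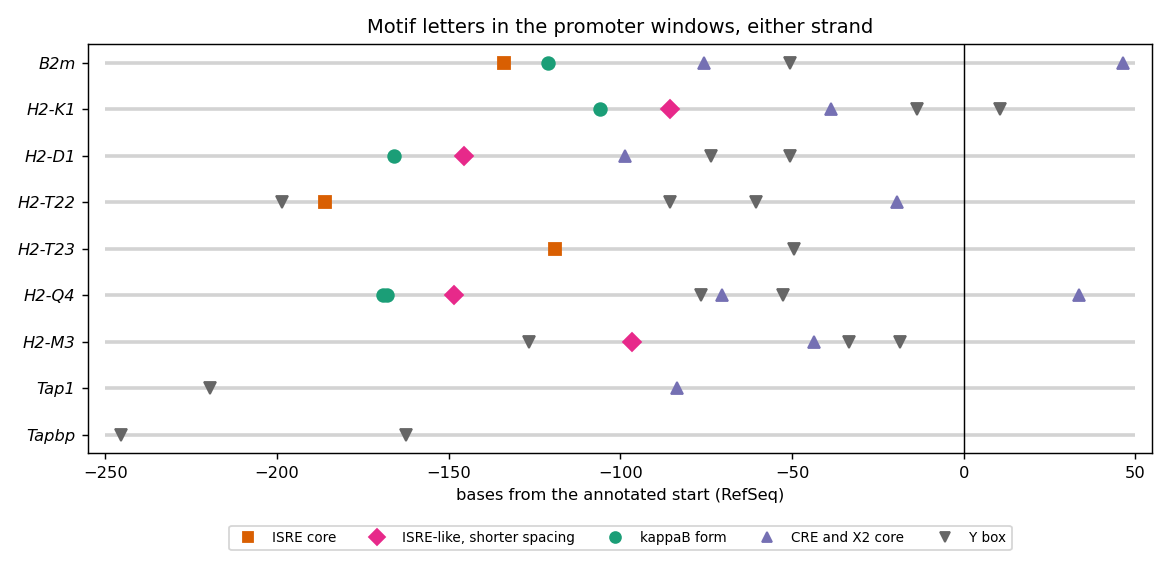
Positions of the motif letters in the promoter windows of 9 genes, by bases from the RefSeq start (0), either strand; each row is a gene and each symbol a match. The kappaB form stands just upstream of the ISRE-like form in H2-K1, H2-D1 and H2-Q4, and in B2m the ISRE core comes before the kappaB form.

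The deposited values are log2 values whose library sums on the linear scale (2^value) ran between 18060473 and 18100239 with microglial apoE and between 18145684 and 18337624 with astrocytic apoE. The read depth behind them is unknown. They have the marks of a regularized logarithm, inferred from the values, which pulls weakly expressed genes towards their own mean and so understates their fold changes and spread. For 7 of the 10 genes the SD within a group was below what counting alone would give if 2^value were a count (for H2-M3, 0.0208 against 0.258), so their SEs and p-values may be too small. Neuronal markers were abundant, with 10 markers summing to 68200 to 68600 on the 2^value scale in the microglial and 71100 to 71900 in the astrocytic apoE libraries. Astrocyte markers were abundant as well, with 10 markers summing to 62100 to 62700 with microglial and 73400 to 74600 with astrocytic apoE.

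With microglial apoE, 9 of the 10 class I and loading genes rose and none fell. In the same comparison 24.9% of the 15055 genes tested were called changed by limma (adjusted p under 0.05, Benjamini-Hochberg over all genes tested), 13.0% higher and 11.8% lower. B2m (2.53-fold), H2-D1 (2.26-fold) and H2-K1 (1.98-fold) rose most, and Tap1 (1.85-fold) led the loading genes. H2-M3, at adjusted p = 0.059, did not pass. The median log2 fold change of the 10 genes was 0.807, against -0.0006 over all genes tested. In all 10 genes the lowest microglial apoE library lay above the highest astrocytic apoE library, which held for 20.1% of all genes tested (38.9% did not overlap in either direction). A called rise of at least 0.7 (log2), a limit set after the values were seen, was found in 6 of the 10 and in 0.379% of all genes tested. The genes were measured in a mixed culture, where more cells of a type and more RNA per cell cannot be told apart.

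**Figure D2:**
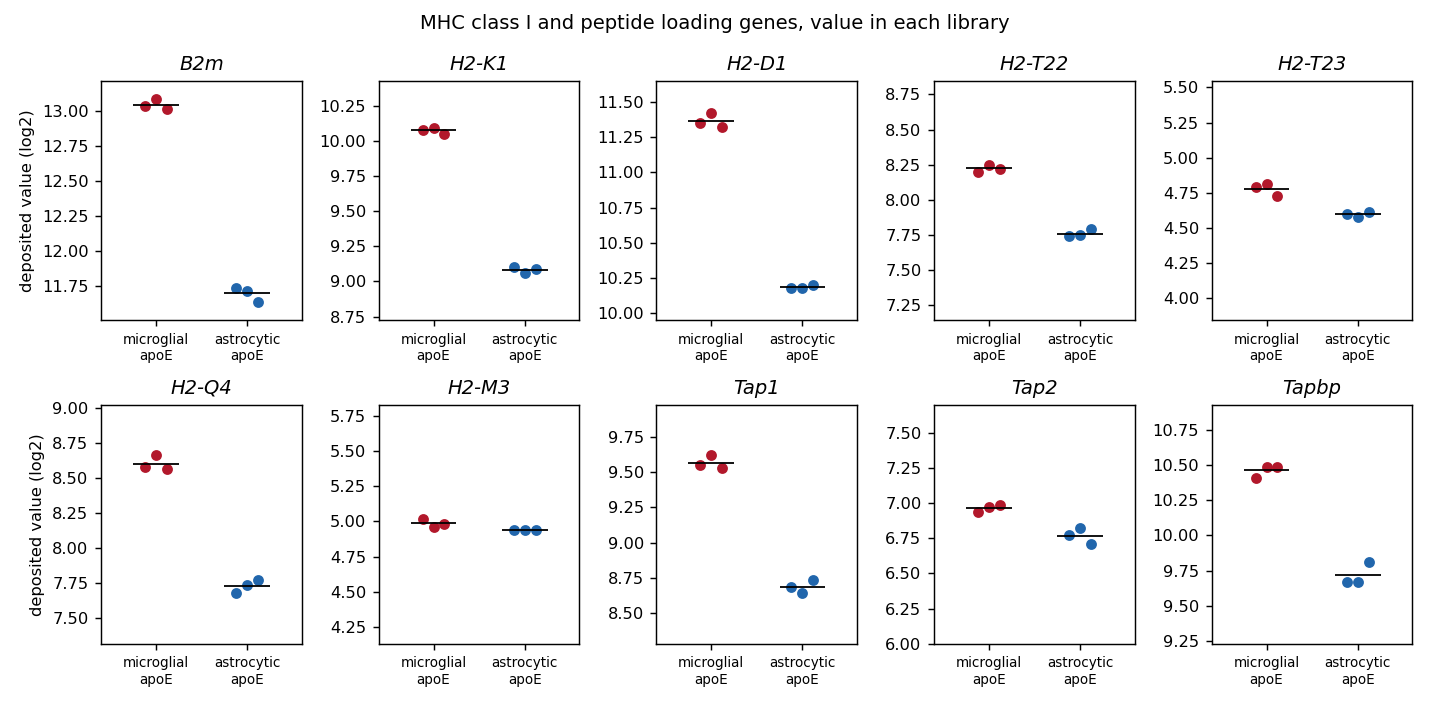
Deposited log2 value of each of the 10 genes in the 3 microglial apoE (left, red) and 3 astrocytic apoE (right, blue) libraries; points are libraries, lines are group means, and every panel spans the same number of log2 units. The groups are far apart for B2m, H2-D1 and H2-K1 and nearly level for H2-M3 (log2 fold change 0.05).

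B2m, on chromosome 2 (122147686 to 122153083, GRCm38, protein-coding), encodes the light chain that every class I heavy chain needs to reach the surface. Its value was 13.03, 13.08 and 13.01 in the microglial apoE libraries and 11.74, 11.72 and 11.64 in the astrocytic apoE libraries. The groups lay 1.27 log2 units apart at their closest libraries. The log2 fold change was 1.34 ± 0.03 (limma SE, adjusted p = 6.5e-22), at rank 23 of the 15055 genes tested. B2m shares no stretch of 50 bases with a transcript of another gene.

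The classical heavy chains, which present peptides to CD8 T cells, are encoded by H2-K1 and H2-D1 on chromosome 17, on either side of the class II genes. H2-D1 (35262730 to 35267499) had values of 11.35, 11.42 and 11.32 with microglial apoE and of 10.18 in 2 of the astrocytic apoE libraries, with a mean of 10.19 ± 0.015 (SD, n = 3) over all 3. Its log2 fold change was 1.17 ± 0.029 (SE, adjusted p = 9.9e-21). H2-K1 (33996017 to 34000347) had values of 10.08, 10.09 and 10.05 with microglial apoE and of 9.10, 9.06 and 9.09 with astrocytic apoE. Both genes were higher in every microglial apoE library, and H2-K1 rose by 0.99 ± 0.029 (log2, SE, adjusted p = 3.5e-19). They ranked 26 and 33 among all fold changes.

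The nonclassical heavy chains show fewer kinds of peptide or bind other receptors, and their changes were spread widely. H2-Q4 (chromosome 17, 35379617 to 35385290), a member of the Q cluster, stood at 8.58, 8.66 and 8.56 with microglial apoE and at 7.68, 7.74 and 7.77 with astrocytic apoE, a rise of 0.87 ± 0.033 (log2, SE, adjusted p = 1e-16). H2-T22 (36037128 to 36042747), whose product is recognised by gamma delta T cells, stood at 8.20, 8.25 and 8.22 with microglial apoE and at 7.74, 7.75 and 7.79 with astrocytic apoE. It rose by 0.47 ± 0.03 (log2, SE, adjusted p = 6.6e-12). The astrocytic apoE levels of H2-Q4 and H2-T22 were close, 7.73 ± 0.045 and 7.76 ± 0.03 (log2, SD, n = 3), and H2-Q4 had the larger change of the pair.

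The remaining heavy chains were close to the lower end of the tested range. H2-T23 (36029773 to 36032855) encodes Qa-1, which is read by inhibitory receptors of natural killer cells. Its value was 4.79, 4.81 and 4.73 with microglial apoE and 4.60, 4.58 and 4.61 with astrocytic apoE, a rise of 0.18 ± 0.019 (log2, SE, adjusted p = 7.6e-08). H2-M3 (37270220 to 37274484) presents peptides that begin with N-formylmethionine. Its value was 5.02, 4.96 and 4.98 with microglial apoE, against 4.94 in each astrocytic apoE library. The difference of 0.05 ± 0.018 (log2, SE) did not pass, but did once all libraries had equal linear sums (adjusted p = 0.019) and without microglial replicate 2 (adjusted p = 0.036). If the values are regularized logarithms, changes at such levels are understated, so the small values of these 2 genes do not show that they changed less than the others.

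The transporter genes lie in the class II part of the H2 region, and Tapbp lies beside H2-K1. Tap1 (chromosome 17, 34187553 to 34197225) encodes a chain of the peptide transporter and stood at 9.55, 9.62 and 9.53 with microglial apoE, against 8.68, 8.64 and 8.73 with astrocytic apoE. It rose by 0.89 ± 0.033 (log2, SE, adjusted p = 4.5e-17). Tap2 (34203527 to 34216321), which encodes the partner chain of the same transporter, stood at 6.94, 6.97 and 6.99 with microglial apoE, against 6.77, 6.82 and 6.71 with astrocytic apoE. Its libraries did not overlap either, and its rise was smaller, at 0.20 ± 0.029 (log2, SE, adjusted p = 1.4e-05). Tapbp (33915899 to 33929292), the tapasin gene, stood at 10.41, 10.49 and 10.49 with microglial apoE and at 9.67, 9.67 and 9.81 with astrocytic apoE, a rise of 0.75 ± 0.035 (log2, SE, adjusted p = 1.3e-13).

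The difference between each of the other 9 genes and B2m was compared between the groups. Within each library the log2 value of H2-D1 lay 1.68 ± 0.012 below that of B2m with microglial apoE and 1.51 ± 0.067 below it with astrocytic apoE (SD, n = 3), a shift of -0.16. For H2-K1 the shift was -0.35, for Tap1 -0.45, for H2-Q4 -0.47 and for Tapbp -0.59. H2-T22 shifted by -0.87, Tap2 by -1.14, H2-T23 by -1.16 and H2-M3 by -1.29. The shifts of weakly expressed genes such as H2-T23 and H2-M3 may be overstated, because their own changes may be understated. In each of the 9 comparisons the 2 groups of libraries did not overlap. Each gave p = 0.1 in a two-sided exact permutation test (0.1 after Benjamini-Hochberg adjustment over the 9). This is the smallest p that 3 against 3 allows. B2m rose more than each of the 9 genes, and its own groups lay 1.27 log2 units apart at their closest libraries. A gene that hardly changed and varied little would therefore also shift down without overlap. The 9 comparisons share B2m and are not independent. How often other tested genes shift in this way was not counted, so the lack of overlap does not set these 9 genes apart.

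Levels of different genes were compared per kb of merged exon (deposited log2 value minus log2 of the length in kb). B2m was highest, at 13.26 ± 0.039 with microglial and 11.92 ± 0.052 with astrocytic apoE (log2 per kb, SD, n = 3). With microglial apoE, H2-D1 followed at 10.00, Tapbp at 8.61, H2-K1 at 8.52, H2-Q4 at 7.22 and Tap1 at 7.11, and H2-T22 (6.45), Tap2 (5.05), H2-M3 (4.46) and H2-T23 (3.25) were lowest. With astrocytic apoE the levels were 8.82 for H2-D1, 7.86 for Tapbp, 7.53 for H2-K1, 6.36 for H2-Q4, 6.23 for Tap1, 5.99 for H2-T22, 4.85 for Tap2, 4.42 for H2-M3 and 3.07 for H2-T23. The order of the 10 genes was the same in both groups, and the closest neighbours were Tapbp and H2-K1 with microglial apoE and H2-Q4 and Tap1 in both groups. Each gap between neighbours was larger than the SD of either gene. The lengths merge all annotated transcripts, so they can overstate the length of the transcript in use.

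**Figure D3:**
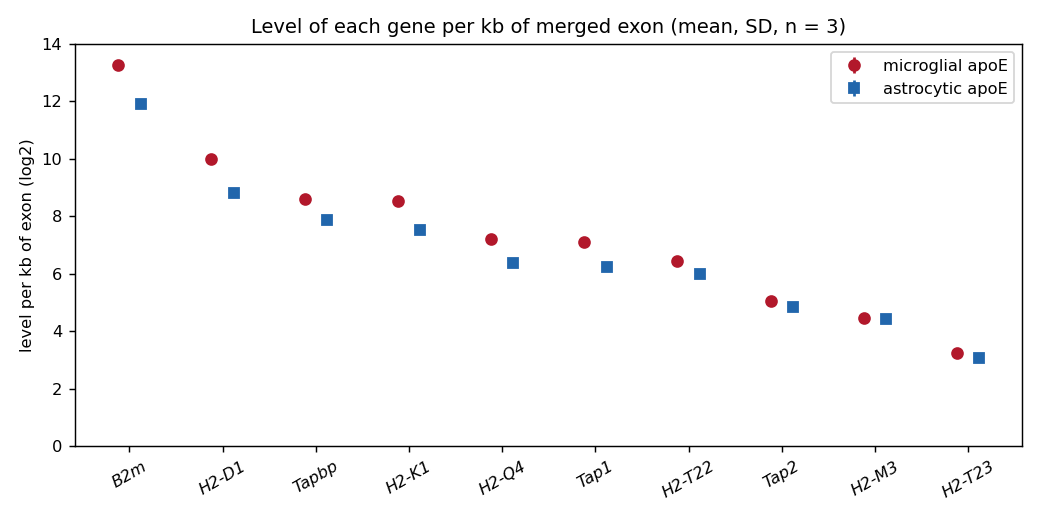
Level per kb of merged exon (log2) of the 10 genes, mean and SD over 3 libraries, microglial apoE (red circles) left of astrocytic apoE (blue squares); most SD bars are smaller than the symbols. B2m is highest (13.26 with microglial, 11.92 with astrocytic apoE) and H2-T23 lowest (3.25 with microglial, 3.07 with astrocytic apoE).

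The ratio of B2m to the sum of the 6 heavy chains, both per kb on the 2^value scale, was 5.90, 5.91 and 5.93 in the microglial apoE libraries and 4.93, 4.86 and 4.52 in the astrocytic apoE libraries. The light chain was thus the more abundant transcript in every library, and its ratio to the heavy chains was higher with microglial apoE. The summed heavy chains were 2.04-fold and B2m 2.53-fold higher with microglial apoE. The ratio averaged 5.91 ± 0.0162 with microglial and 4.77 ± 0.222 with astrocytic apoE (SD, n = 3, two-sided exact permutation p = 0.1, the smallest possible). H2-D1 made up 61.6% ± 0.458 of the heavy chain sum with microglial and 55.7% ± 0.0675 with astrocytic apoE. H2-K1 made up 22.1% ± 0.415 with microglial and 22.8% ± 0.285 with astrocytic apoE, and H2-T22 made up 5.30% ± 0.107 with microglial and 7.81% ± 0.0773 with astrocytic apoE (SD, n = 3).

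Reads of near-identical H2 genes can be divided wrongly among them. Of the distinct stretches of 50 bases in its transcripts, H2-T22 shared 34.5% with another gene, most of them with H2-T10, and H2-Q4 shared 21.8%. H2-T23 shared 13.6%, H2-D1 12.8% and H2-K1 9.63%, against 0.576% in H2-M3, 0.442% in Tap1 and 0.655% in Tap2. At 100 bases the shares were 8.86% for H2-T22, 3.59% for H2-D1, 2.16% for H2-Q4 and 0.957% for H2-K1. The sharing makes the heavy chain values uncertain by an amount that was not measured, and the H2 alleles of these mice may differ from the reference.

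Some of the genes also overlap others, and the strand setting of the counting is not given in the sources used here. Tap1 shares 212 exon bases (3.87% of its own) with Psmb9 on the other strand, which stood at 5.76 with microglial and 5.60 with astrocytic apoE. Tapbp shares 4.11% of its exon bases with Zbtb22 on the same strand, which stood at 9.39 with microglial and 9.32 with astrocytic apoE (log2 fold change 0.07). The antisense genes over H2-T22, H2-Q4, Tap2 and Tapbp had values of 1.43 or less in both groups. What overlap adds to the values of these genes was not tested.

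Among the other class I heavy chain genes of the H2 region, 3 of 7 tested rose and none fell, with a median log2 fold change of 0.022; 28 were listed, 5 of them not in the tables, 7 at 0 and 9 below the filter. Over all genes tested, 13.0% were called higher and 11.8% lower. The 3 of this list that rose were H2-Q7 (0.16 ± 0.016 SE, adjusted p = 1.6e-08), H2-Q6 (0.09 ± 0.012) and H2-T10 (0.06 ± 0.012). Their astrocytic apoE levels were 4.55, 3.71 and 3.49, among the lowest tested, and none of the 7 reached the rise of H2-T22. H2-T22 stood higher, at 7.76 with astrocytic apoE. Changes of weakly expressed genes may be understated, so these 3 values do not show a smaller change than that of H2-T22. H2-T10 shared 31.7% of its 50-base stretches with H2-T22, and H2-Q6 13.9% with H2-Q7, so these calls are uncertain. H2-T24, at 6.96 ± 0.028 with microglial and 6.95 ± 0.044 with astrocytic apoE (log2, SD, n = 3), did not pass (log2 fold change 0.01 ± 0.029 SE, limma adjusted p = 0.80). H2-Q2, at 3.96, 3.96 and 3.94 with microglial apoE and at 3.98, 3.99 and 3.98 with astrocytic apoE, did not pass (limma adjusted p = 0.11). It was called lower with each library centred on its median (-0.05, adjusted p = 0.017) and with mitochondrially encoded genes left out and equal linear sums (-0.04, adjusted p = 0.034), a setting added after seeing the data. No gene of this list passed at a filter of 50 on the 2^value scale.

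The immunoproteasome is a form of the proteasome that supplies peptides for class I molecules. All 5 immunoproteasome genes tested were higher with microglial apoE (median log2 fold change 0.327), against 13.0% of all genes tested. The catalytic subunit gene Psmb8 rose by 0.43 ± 0.043 (log2, SE), with values of 6.42, 6.62 and 6.54 with microglial apoE and of 6.05, 6.11 and 6.12 with astrocytic apoE. Of the activator genes Psme2 rose by 0.43 ± 0.03 and Psme1 by 0.33 ± 0.029, and the subunit genes Psmb10 and Psmb9 rose by 0.30 ± 0.033 and 0.17 ± 0.023. Of the 3 constitutive counterparts Psmb5 (0.21 ± 0.03) and Psmb6 (0.12 ± 0.029) rose, and Psmb7 did not pass (-0.01 ± 0.027, limma adjusted p = 0.80).

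The endoplasmic reticulum partners of loading went both ways. Of 8 tested, 2 rose and 2 fell, with a median log2 fold change of -0.022. Over all genes tested, 13.0% were called higher and 11.8% lower. Erap1, the aminopeptidase that trims peptides to class I length, rose by 0.32 ± 0.034 (log2, SE, adjusted p = 9.8e-08), with values of 9.63, 9.49 and 9.62 with microglial apoE, against 9.25, 9.28 and 9.26 with astrocytic apoE. Calreticulin (Calr, -0.11 ± 0.028, adjusted p = 0.0047) and calnexin (Canx, -0.11 ± 0.027, adjusted p = 0.0046), chaperones of glycoproteins in general, fell. Tapbpl, a relative of tapasin, rose by 0.07 ± 0.024 (adjusted p = 0.042), a call lost under 8 alternatives, among them centring each library on its median (adjusted p = 0.14) and leaving out microglial replicate 1 or 3 or astrocytic replicate 1 or 2 (adjusted p of 0.11 to 0.15). The protein disulfide isomerase of the loading complex, Pdia3, was at 12.31 ± 0.02 with microglial and 12.34 ± 0.035 with astrocytic apoE (log2, SD, n = 3; limma adjusted p = 0.48). The glucosidase gene Ganab (0.04), the glucosyltransferase gene Uggt1 (-0.03) and the aminopeptidase gene Lnpep (-0.02) did not pass either.

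Transcription factors of class I genes were mixed: 3 of 12 rose and 1 fell, with a median log2 fold change of 0.06. Over all genes tested, 13.0% were called higher and 11.8% lower. Nlrc5, the class I transactivator, stood at 7.28, 7.20 and 7.23 with microglial apoE and at 6.77, 6.76 and 6.83 with astrocytic apoE. It rose by 0.45 ± 0.029 (log2, SE, adjusted p = 7.4e-12). The interferon regulatory factor genes Irf1 and Irf2 rose by 0.24 ± 0.03 and 0.23 ± 0.031. Rfx5, whose product binds the X box, fell by 0.08 on the log2 scale (adjusted p = 0.034), a call lost once all libraries had equal linear sums (adjusted p = 0.08) and in the replicate block fit (adjusted p = 0.053). It was also lost without any library other than astrocytic replicate 3 (adjusted p of 0.051 to 0.15). Without astrocytic replicate 3 the list had 7 calls, against 4 with all 6 libraries. The kappaB subunit genes Rela (0.06 ± 0.032) and Nfkb1 (0.04 ± 0.031) did not pass in the fit of all 6 libraries, and Rela passed without astrocytic replicate 3 (adjusted p = 0.035).

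**Figure D4:**
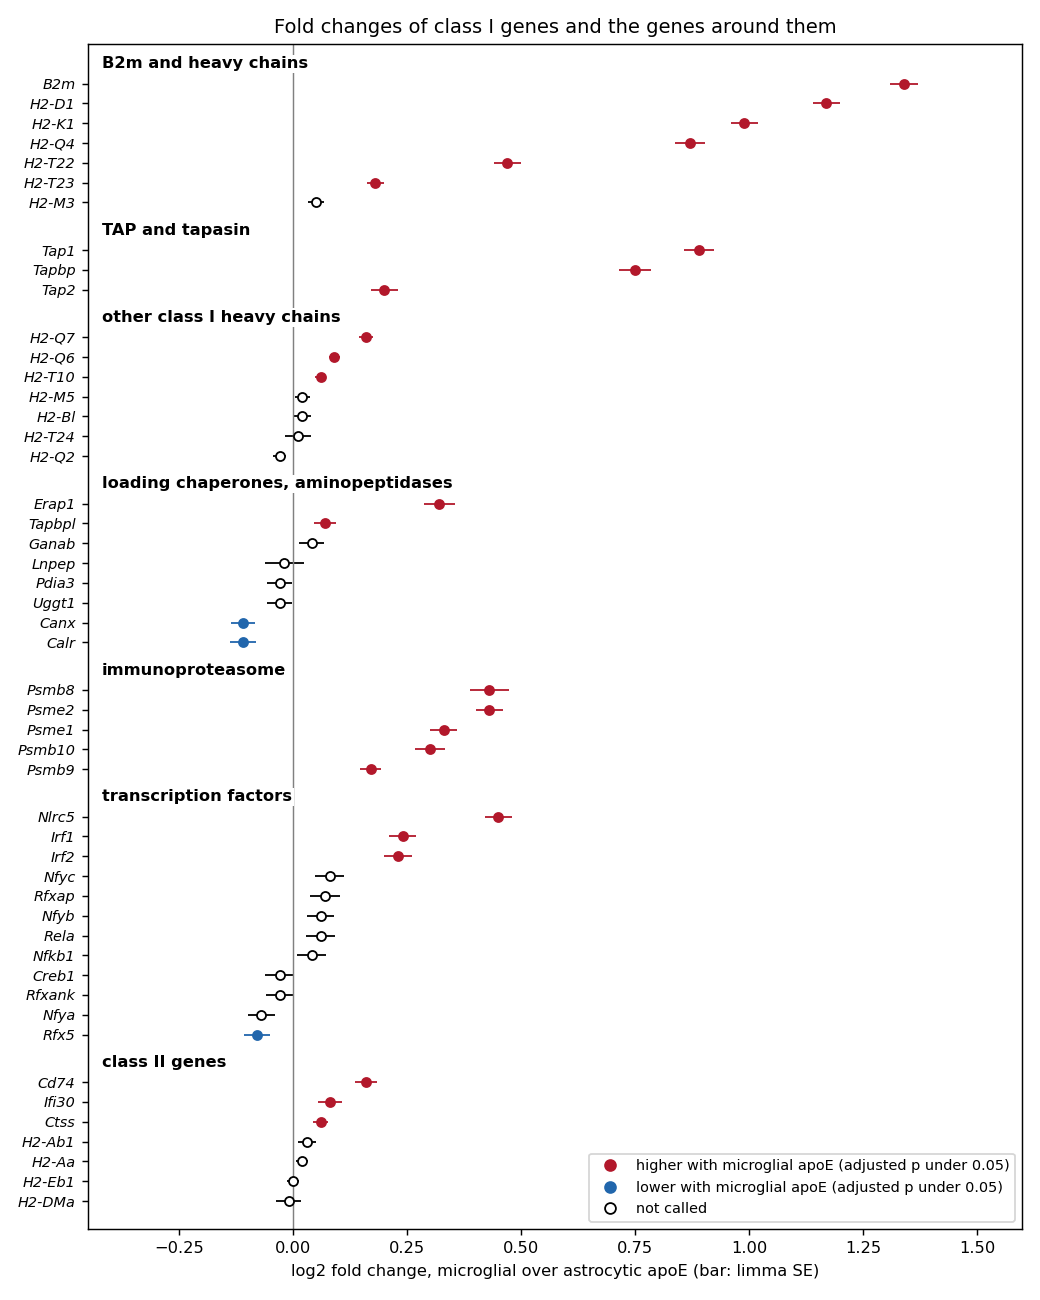
Log2 fold changes (microglial over astrocytic apoE) with limma SE bars, grouped by role; filled red is higher and filled blue lower at adjusted p under 0.05, open is not called. Class I members reach 1.34 (B2m), transcription factors 0.45 (Nlrc5) and class II genes 0.16 (Cd74).

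Class II genes serve the presentation of peptides of other origin on specialised cells. Of 13 listed, 1 was at 0 and 5 were below the filter, and 3 of the 7 tested rose (median log2 fold change 0.026): the invariant chain gene Cd74 (0.16 ± 0.024 SE, adjusted p = 1.7e-05), the thiol reductase gene Ifi30 (0.08 ± 0.026) and the protease gene Ctss (0.06 ± 0.016). Over all genes tested, 13.0% were called higher and 11.8% lower. The Ifi30 call was lost with median centring (adjusted p = 0.086) and without astrocytic replicate 1 or any microglial replicate (adjusted p of 0.053 to 0.18). The chain genes H2-Aa, H2-Ab1 and H2-Eb1 had levels of 3.85, 5.02 and 3.42 with microglial apoE and of 3.83, 4.99 and 3.42 with astrocytic apoE. None of the 3 passed, and at such low levels changes may be understated. The loading gene H2-DMa, at 7.11 ± 0.011 with microglial and 7.12 ± 0.012 with astrocytic apoE (log2, SD, n = 3), did not pass either (limma adjusted p = 0.84).

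As a measure of scale, all 17 tested interferon-induced antiviral genes rose, with a median log2 fold change of 1.602 against 0.807 for the class I and loading genes. Over all genes tested, 13.0% were called higher. The 17 genes were listed with earlier results of these data known. The smallest rise among them was 0.31 (Mx1) and the largest 3.31 (Oasl2), and B2m (1.34) was between Ddx58 (1.26) and Stat2 (1.38). The difference between the 2 lists was not tested.

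Markers of other cell types that carry class I molecules were measured beside these values. Over all genes tested, 13.0% were called higher and 11.8% lower. The 20 markers of microglia and macrophages summed to 1030 on the 2^value scale in the microglial apoE libraries and to 981 to 1000 in the astrocytic apoE libraries, a ratio of means of 1.04. Of the 16 tested, 3 rose (Laptm5 by 0.08, Ctss by 0.06 and C1qc by 0.06, log2) and none fell; most were weakly expressed, where changes may be understated. Of the 20, P2ry12, Tmem119, Trem2 and Ly86 were below the filter, and none was at 0. Among the 16 tested were Cx3cr1, at 4.77 with microglial and 4.76 with astrocytic apoE, and C1qa, at 5.93 with microglial and 5.89 with astrocytic apoE. Markers of mural cells and fibroblasts summed to 1930 to 1970 with microglial and 1760 to 1810 with astrocytic apoE, and 3 of 7 tested rose (Acta2 by 0.21, Col1a1 by 0.21 and Col1a2 by 0.08, log2). Endothelial markers summed to 122 to 124 with microglial and 123 to 126 with astrocytic apoE. Markers of the oligodendrocyte lineage summed to 6610 to 6770 with microglial and 6500 to 6810 with astrocytic apoE. Of 9 tested in that lineage, 1 rose (Olig2, log2 fold change 0.15) and 3 fell (Pdgfra -0.38, Cnp -0.20 and Sox10 -0.11). Of the 7 lymphocyte markers, Cd3e, Cd3d, Cd3g and Ms4a1 were at 0 and the others were below the filter. Astrocyte markers were lower with microglial apoE, by a ratio of means of 0.841, and 8 of 10 fell. Slc1a3, which had the highest value of the 10, rose (log2 fold change 0.09), and Sox9 did not pass (0.06). Of the 10 neuronal markers, 4 fell (Stmn2 -0.13, Nefl -0.12, Map2 -0.10 and Rbfox3 -0.08, log2) and none rose, with a ratio of means of 0.957. The Rbfox3 call was lost with equal linear sums (limma adjusted p = 0.096), and the Map2 call without astrocytic replicate 2 (0.051). The part of any of these cell types in the class I values was not tested.

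The tested genes outside every list whose values followed the median profile of the 10 genes most closely over the 6 libraries were Gdf15 (root mean square distance 0.0236), a stress-induced cytokine gene, the processed pseudogene Gm6548 (0.0257), and Irgm2 (0.0362), an interferon-induced GTPase gene. Their log2 fold changes were 0.76, 0.80 and 0.83. With 2 groups of 3, a close profile means mainly a similar difference between the groups.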

How the data were processed

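Total RNA of 6 samples was sequenced by BGI, per the labels' protocols. The authors deposited 1 log2 value per gene symbol and sample. Tools named in the submitters' processing notes, without roles, are HISAT2, featureCounts, DESeq2 and FastQC, with GRCm38 as the build. Neither versions nor the strand used in counting are stated there. A regularized logarithm was inferred, because 21031 symbols were exactly 0 in every library and no symbol was 0 in only some. Samples were grouped by their recorded treatment. Values were tested as deposited with limma 3.58.1 (trend and robust options) in R 4.3.3, on 15055 genes reaching 10 on the 2^value scale in at least 3 libraries; the procedure was tested on simulated data. Differences from B2m within each library and the ratio of B2m to the heavy chains were compared by exact permutation (scipy 1.17.1). Positions and exon lengths are from GENCODE M21 (GRCm38, 1-based), promoters from RefSeq. The 10 genes and all lists were chosen with earlier results of these data known, and 1 listed gene is not reported here. Named are the 10 genes, up to 4 called genes with the smallest p per list (all genes of short lists) and 3 genes by profile; others were named after their values were seen. Alternatives were 3 scalings (1 added after seeing the data), 2 filters, a pseudocount of 1, plain limma, a replicate block and leaving out each library. Tables and figures were made in Python 3.11.15 with pandas 2.3.3 and matplotlib 3.10.9.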

Additional observations from a re-analysis of the deposited data

How the results depend on the processing

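Of the 10 genes, 9 kept their direction and their call under every alternative that could test them: 14 for each, and 13 for H2-T23 and H2-M3, which were below the filter of 50 on the 2^value scale. Their fold changes moved little (B2m between 1.31 and 1.36, Tap2 between 0.17 and 0.22, log2). H2-M3 passed at 0.06 with equal linear sums and ranged from 0.03 to 0.06 with 1 library left out. The number of the 10 called was 8 at the filter of 50 (8 tested) and 9 to 10 with 1 library left out. In the fit with a replicate block 9 of the 10 were called, as in the fit without it, and the block changed the call of none of them; same-numbered libraries did not deviate together (correlations of 0.039, -0.122 and -0.186), so the numbers were not taken as pairs. At the filter of 50, 0 other class I heavy chain genes, 1 class I-like gene and 1 class II gene were called, because fewer were tested. The count for the transcription factors was 3 to 7 with 1 library left out, and the cause was not tested. With a longer ISRE form (the core followed by C), 1 promoter window matched in place of 3. Median centring put the median of all genes at -0.019 and equal sums at 0.013 (log2). Depth is unknown, so the precision of weakly expressed genes cannot be stated.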

Other observations

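Class I-like molecules outside the H2 region did not move together. Of 4 tested, Hfe, which regulates iron uptake and pairs with beta-2-microglobulin, rose by 0.29 ± 0.03 (log2, SE, limma adjusted p = 4.4e-08), with values of 7.67, 7.63 and 7.61 with microglial apoE and of 7.34, 7.32 and 7.38 with astrocytic apoE. Mr1, which presents vitamin B metabolites and also pairs with beta-2-microglobulin, fell by 0.10 on the log2 scale (SE 0.018, limma adjusted p = 0.00023), with values of 5.15, 5.14 and 5.13 with microglial apoE, against 5.23, 5.24 and 5.24 with astrocytic apoE. The groups did not overlap in either gene, which held for 38.9% of all genes tested. Among all genes tested, 13.0% were called higher and 11.8% lower. The neonatal Fc receptor gene Fcgrt (-0.02 ± 0.022 SE) and the lipid-presenting Cd1d1 (0.05 ± 0.024 SE) did not pass.

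Of the receptors that bind class I molecules, 5 of the 10 in the tables were at 0, among them Cd8a and Cd8b1, and 4 were below the filter, among them the neuronal and myeloid receptor gene Pirb (3.22 ± 0.013 with microglial and 3.21 ± 0.014 with astrocytic apoE, log2, SD, n = 3). The interferon genes Ifnb1, Ifna2, Ifna4 and Ifng were at 0 in all 6 libraries. The 4 receptor genes Ifnar1, Ifnar2, Ifngr1 and Ifngr2 were expressed, and limma called none of them, with 0 at an unadjusted p under 0.05 (log2 fold changes of -0.04 to 0.04).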
